A study of Mus musculus with 4 samples.

Results

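The Kruppel-like factors examined here were 9 genes of the family, namely Klf2, Klf3, Klf4, Klf6, Klf7, Klf9, Klf10, Klf12 and Klf13. They are a part of the family and were chosen with earlier results of these data known. Klf1, Klf5, Klf11, Klf15, Klf16 and Klf17 were also measured and are read below in a separate list with the SP genes. Every probe set with one of these names as its only gene symbol in the array annotation was taken, which gave 26 probe sets for 8 of the 9 genes, out of 45037 probe sets and 17097 named genes in all. No probe set carried Klf7 as its single name, and Klf7 is not analysed here. The RNA came from sorted CD4+CD8+ double-positive (DP) thymocytes of C57BL/6 mice, the immature T cells that carry both coreceptors. Each of the 4 samples was hybridised to its own Affymetrix array, and the values are RMA signals on the log2 scale. The groups were 2 arrays titled hCD2-iCre x Gfi1fl/fl and 2 arrays titled WT. In the first, an improved Cre recombinase under human CD2 control, active in lymphoid cells, was combined with floxed alleles of Gfi1, a zinc-finger repressor of blood and lymphoid cells. The labels do not say that the WT mice carried the recombinase or a floxed allele, nor how old the mice were or whether each array held 1 animal. P-values therefore measure only the spread between these samples, which may be technical, and 2 arrays per label limit the precision.

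Kruppel-like factors are DNA-binding proteins with a conserved C-terminal set of zinc fingers that reads CACCC boxes and GC-rich elements. The family falls into groups by the rest of the protein. KLF2, KLF4, KLF6 and KLF7 are known mostly as activators, KLF3 and KLF12 repress through the corepressor CtBP, and KLF9, KLF10 and KLF13 bind the corepressor SIN3A. In the thymus KLF2 is known as a factor of late maturation: it is low in double-positive cells, appears in mature single-positive cells under FOXO1 control and is needed for the expression of the egress receptor gene S1pr1.

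The promoters of the gene that changed most (Klf2), of a gene whose probe sets all lay on one side (Klf3) and of a brightly measured gene with almost equal signals (Klf13) are shown for orientation. Each stretch runs from 250 bases before to 50 bases after the annotated start, 5′ to 3′ on the gene's strand, in the RefSeq table of build GRCm38.p6, which held 8 of the 9 genes. Capitals mark CACCC boxes (CACCC), GC boxes (GGGCGG) and the MEF2 consensus, each searched on both strands, and overlapping matches form one run of capitals. Klf2 lies at chr8:72319062-72321654, and its promoter at chr8:72318812-72319111, plus strand. The Klf3 promoter is at chr5:64803271-64803570, plus strand, and the Klf13 promoter at chr7:63938866-63939165, minus strand.
Klf2: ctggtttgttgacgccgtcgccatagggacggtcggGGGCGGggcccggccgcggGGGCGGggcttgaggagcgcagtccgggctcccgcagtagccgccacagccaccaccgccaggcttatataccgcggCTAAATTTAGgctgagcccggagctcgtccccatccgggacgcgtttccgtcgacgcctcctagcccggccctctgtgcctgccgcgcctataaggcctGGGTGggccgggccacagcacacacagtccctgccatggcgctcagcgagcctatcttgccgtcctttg
Klf3: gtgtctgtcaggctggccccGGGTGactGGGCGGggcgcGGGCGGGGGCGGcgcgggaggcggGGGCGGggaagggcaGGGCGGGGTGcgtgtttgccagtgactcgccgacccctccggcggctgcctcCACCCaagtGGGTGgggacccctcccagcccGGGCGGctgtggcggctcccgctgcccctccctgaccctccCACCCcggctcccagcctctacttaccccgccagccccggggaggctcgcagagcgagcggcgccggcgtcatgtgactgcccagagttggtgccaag
Klf13: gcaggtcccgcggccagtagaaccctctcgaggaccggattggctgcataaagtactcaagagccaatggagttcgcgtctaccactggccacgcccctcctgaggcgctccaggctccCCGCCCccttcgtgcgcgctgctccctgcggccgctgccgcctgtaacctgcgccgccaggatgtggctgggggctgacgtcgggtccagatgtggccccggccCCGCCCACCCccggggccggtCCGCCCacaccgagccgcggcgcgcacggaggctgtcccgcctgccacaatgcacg
The Klf2 window held 1 CACCC box, 2 GC boxes and 1 match to the strict MEF2 motif, which spans positions -118 to -109 from the start. MEF2 proteins act at the end of the ERK5 kinase pathway. Of the 32851 promoters of this length, 0.557% held a match to the strict MEF2 motif, 57.5% a CACCC box and 35.7% a GC box. Looser forms of the MEF2 site were not searched, so the share of promoters with any MEF2 site is not given here. The Klf3 window held 5 CACCC boxes and 6 GC boxes, and the Klf13 window 1 and 3. The FOXO motif GTAAACA (3.65% of promoters) was found in the Klf9 window alone of the 8, and the letters AAATCA, which contain the core bound by GFI1 (14% of promoters), in none of the 8. Only these longer letters were searched, so the shorter core itself may occur in these windows. The Klf7 and Klf12 windows lie within the annotated span of their genes, so they mark internal starts and not the outermost ones. Matches are descriptions of letters in these windows.

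Each of the 4 arrays had a median signal between 3.53 and 3.55. Array pairs of one label correlated at 0.990 for hCD2-iCre x Gfi1fl/fl and 0.991 for WT over all probe sets, and pairs across labels at 0.982 to 0.986. The targeted gene was checked first. Gfi1 was higher on the arrays labelled hCD2-iCre x Gfi1fl/fl, at 11.47 and 11.32, against 10.17 and 10.08 on the arrays labelled WT, a difference of 1.27 ± 0.13 (SE; limma, adjusted p = 0.00976). The call was lost without WT replicate 1 or 2 (adjusted p = 0.0526 and 0.0683) and without the intensity trend (0.0511). Where the Gfi1 probes lie with respect to the loxP sites is not given in the sources used here, and probes outside the deleted part would check nothing. Groups are therefore named by their labels, and the arrays labelled hCD2-iCre x Gfi1fl/fl are called labelled cKO. Of 9 measured markers of double-positive cells, all lay above the array medians on every array. None rose and 1 fell, Dntt, which encodes terminal deoxynucleotidyl transferase. It had 11.65 and 11.60 on arrays labelled cKO and 12.23 and 12.39 on arrays labelled WT, a difference of -0.69 (adjusted p = 0.0381, limma). The call of Dntt was lost in 6 of 11 alternative fits with limma, with adjusted p up to 0.260.

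Klf2 rose on the arrays labelled cKO, and none of the other 25 Kruppel-like factor probe sets was called. A call required a limma p of at most 0.05 after Benjamini-Hochberg adjustment across the 45037 probe sets. By that rule 1 of 26 Kruppel-like factor probe sets was higher and 0 were lower. An unadjusted limma p under 0.05 was found for 5 of the 26, against 3441 of all 45037 probe sets. With 1 probe set per gene it was found for 1417 of 17097 genes, a share to set beside the list counts below. Among all probe sets 0.766% were called, 0.664% higher and 0.102% lower. The median difference over the 26 probe sets was 0.17, against -0.01 over all probe sets. The groups did not overlap for 15 of the 26 probe sets, against 34.7% of all probe sets.

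**Figure D1:**
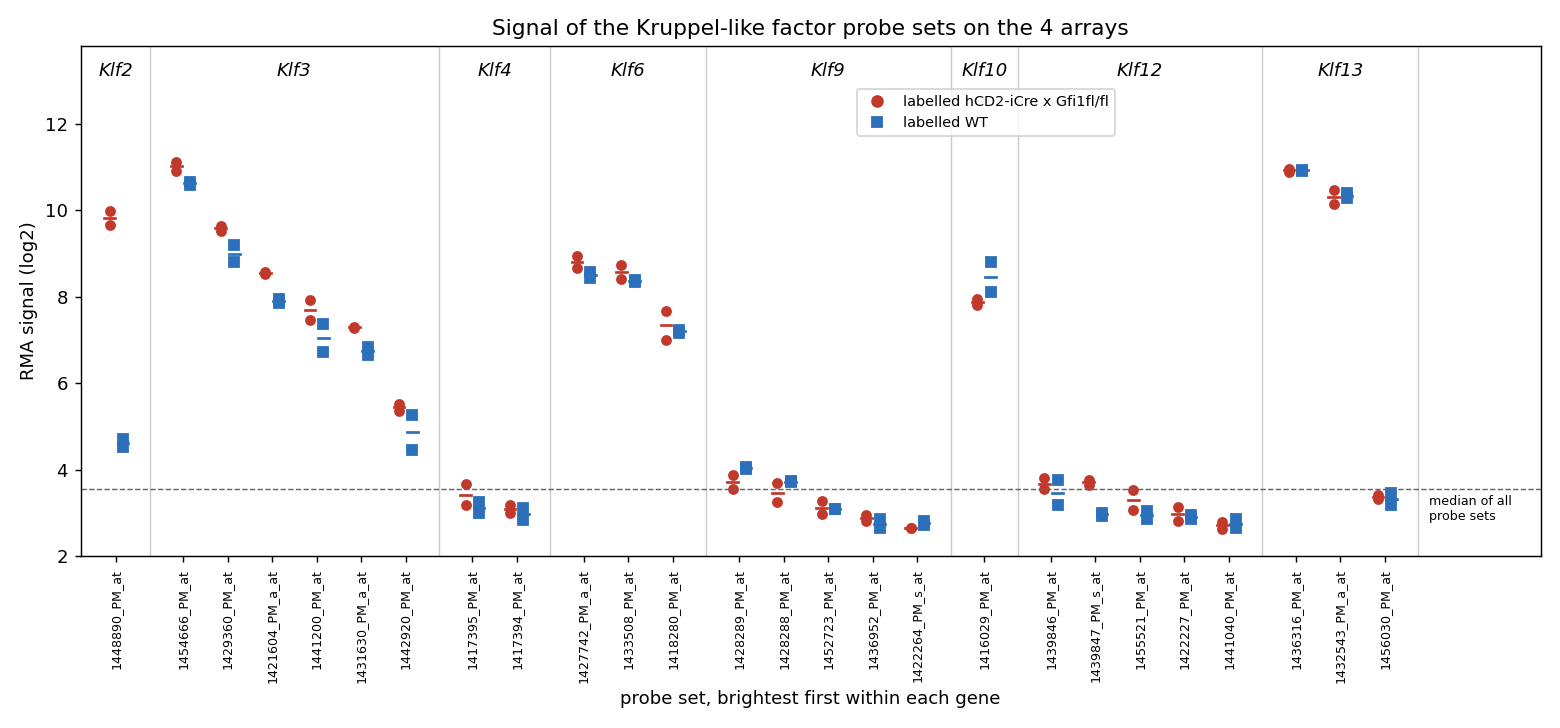
RMA signal (log2, vertical axis) of each of the 26 Kruppel-like factor probe sets (horizontal axis, grouped by gene, brightest first), with 1 point per array, a short line at the mean of each label and a dashed line at the median of all probe sets. The red circles of the arrays labelled hCD2-iCre x Gfi1fl/fl stand far above the blue squares of the arrays labelled WT for Klf2, and the Klf4, Klf9 and Klf12 probe sets lie near or below the dashed line under both labels.

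Klf2, the factor of T cell quiescence and migration, gave 9.66 and 9.97 on the arrays labelled cKO, against 4.70 and 4.53 on the arrays labelled WT, which is above the array medians under both labels. Both arrays labelled cKO were high and both labelled WT were low, with a gap many times the spread within either label. The difference was 5.20 ± 0.25 on the log2 scale (SE; 95% interval 4.62 to 5.78; limma, adjusted p = 0.000558), or 36.8-fold in RMA signal. It ranked number 16 by size and number 10 by p among the 45037 probe sets. Leaving out each array in turn gave differences between 5.04 and 5.36 with adjusted p of at most 0.00349. The call held in all 11 alternative fits with limma (adjusted p from 0.000122 to 0.00737, the highest with the replicate number as a block). An ordinary t statistic, with 2 residual degrees of freedom per probe set, did not call Klf2 (adjusted p = 0.552) and called 1 probe set in all. Klf2 was represented by 1 probe set, so no second probe set stands beside it. In sorted bulk cells, more cells with Klf2 RNA and more Klf2 RNA per cell cannot be told apart.

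The other factors known mostly as activators differed much less. Klf6, an immediate-early factor induced in many cell types by growth signals, was read by 3 probe sets. The brightest gave 8.66 and 8.94 on the arrays labelled cKO and 8.43 and 8.58 on those labelled WT, a difference of 0.30 ± 0.21 (SE; 95% interval -0.20 to 0.79; limma, adjusted p = 0.877). The other Klf6 probe sets differed by 0.22 and 0.13, and the dimmest of the 3 overlapped between the labels. On each of the 3, replicate 2 labelled cKO was the highest array. Klf4, which restrains proliferation in epithelia and T cells, was dim. Its brighter probe set gave 3.68 and 3.17 on arrays labelled cKO and 3.24 and 3.004 on arrays labelled WT, around or below the array medians, and the labels overlapped. The differences of its 2 probe sets were 0.30 (95% interval -0.14 to 0.75) and 0.11 (-0.19 to 0.42), with adjusted p of 0.837 and 0.963 in limma. Without single arrays the first ran from 0.049 to 0.56. At such signals a small change of Klf4 was not detectable.

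Klf3 lay higher on the arrays labelled cKO in all 6 of its probe sets, but none was called. KLF3 is a CtBP-dependent repressor that in erythroid cells competes with activating family members for CACCC boxes. The brightest probe set gave 10.90 and 11.13 on the arrays labelled cKO, against 10.59 and 10.65 on the arrays labelled WT. Its difference was 0.39 ± 0.14 (SE; 95% interval 0.06 to 0.71; limma, adjusted p = 0.512). The third in brightness gave 8.58 and 8.52 on the arrays labelled cKO and 7.95 and 7.86 on those labelled WT, a difference of 0.65 ± 0.21 (adjusted p = 0.425, limma). Over the 6 probe sets the differences ran from 0.39 to 0.65 and the adjusted p from 0.425 to 0.786, and the labels did not overlap in any of them. The 6 probe sets read the same 4 RNA samples and are not replicates of the comparison. The mean of the 6 differed by 0.57 ± 0.18 (SE) and was not called either (limma over gene means, adjusted p = 0.387). Leaving out each array in turn kept every Klf3 difference above 0, between 0.18 and 0.99.

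Klf12, the other CtBP-binding repressor measured, was dim in all 5 probe sets, and these did not move alike. Probe set 1439847_PM_s_at gave 3.77 and 3.66 on the arrays labelled cKO, against 2.999 and 2.94 on the arrays labelled WT. Its labels did not overlap, and its difference of 0.74 ± 0.12 (SE) missed the threshold (limma, adjusted p = 0.0646). It passed after a further quantile normalization (0.0484), without the dimmest 30% of probe sets (0.0411) and with a robust prior (0.0458), and its adjusted p was between 0.0895 and 0.274 when single arrays were left out. Probe set 1439846_PM_at, annotated with the same accession, gave 3.81 and 3.55 on arrays labelled cKO and 3.76 and 3.18 on arrays labelled WT, and the labels overlapped (difference 0.21, adjusted p = 0.951). The remaining 3 differed by 0.34, 0.07 and -0.03. The mean over the 5 probe sets differed by 0.27 ± 0.10 (SE; limma over gene means, adjusted p = 0.494).

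**Figure D2:**
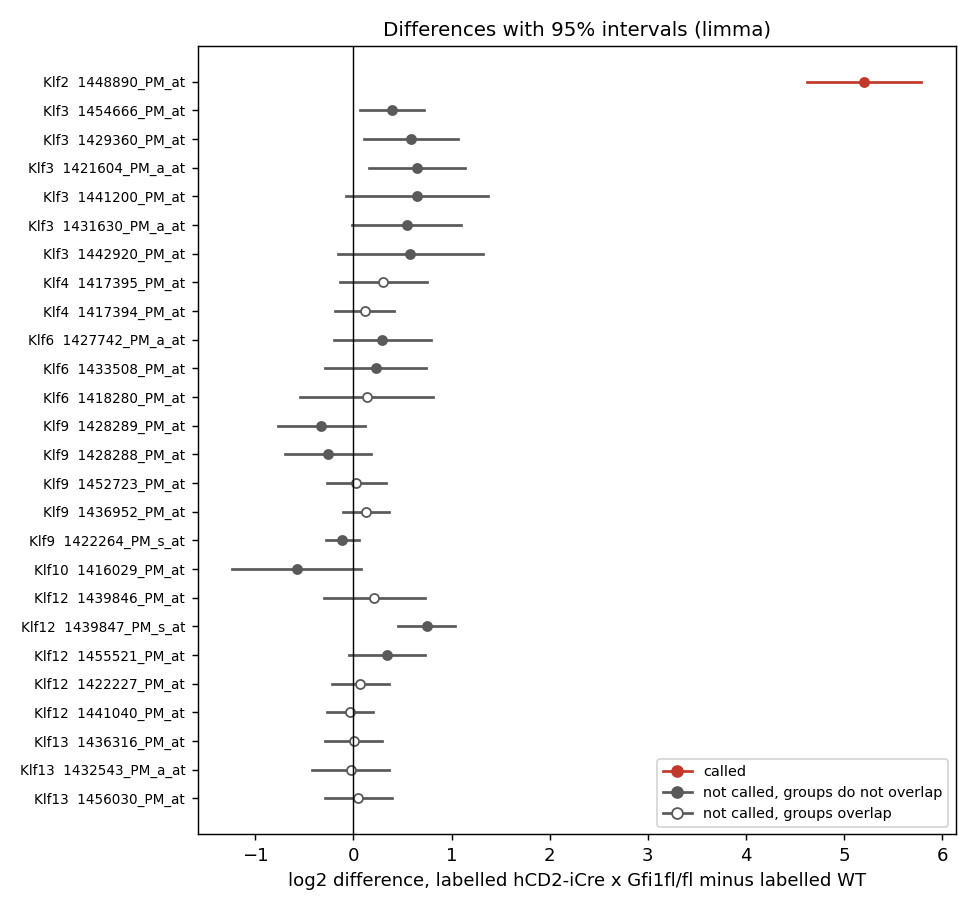
Log2 difference between the arrays labelled hCD2-iCre x Gfi1fl/fl and those labelled WT (horizontal axis) for each of the 26 probe sets (vertical axis), with 95% intervals from limma, red where called, filled where the 2 labels do not overlap and open where they do. Klf2 stands alone at 5.20, the 6 Klf3 probe sets lie between 0.39 and 0.65, and the Klf13 intervals are centred near 0.

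Among the SIN3A-binding factors, Klf13 was bright and almost equal between the labels. KLF13 is known in T cells as an activator of the chemokine gene Ccl5 and in thymocytes as a factor of survival control. Its brightest probe set gave 10.89 and 10.96 on the arrays labelled cKO and 10.94 and 10.90 on the arrays labelled WT. The difference was 0.0014, with a 95% interval of -0.29 to 0.29, which bounds any change of this signal to about that size, and its sign turned under other scalings. The second bright Klf13 probe set differed by -0.03 (-0.42 to 0.36), and the third was below the array medians. The 2 measured genes linked to KLF13, Ccl5 and the survival gene Bcl2l1, had differences of 0.48 and 0.02, neither of them called in limma (adjusted p = 0.879 and 1.00, with 0 of the 2 at an unadjusted p under 0.05).

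Klf10, a TGF-beta-induced factor, lay well above the array medians and had its lower signals on the 2 arrays labelled cKO. Klf10 gave 7.81 and 7.96 there, against 8.80 and 8.12 on the arrays labelled WT. The arrays labelled WT lay further apart (SD 0.48) than those labelled cKO (SD 0.11), and the difference of -0.58 ± 0.28 (SE; 95% interval -1.23 to 0.08) was not called (limma, adjusted p = 0.727). It was -0.23 without WT replicate 1 and -0.92 without WT replicate 2. Of 10 measured genes of the TGF-beta and KLF10 circuit, 1 rose, 0 fell and 9 did not pass, with a median difference of 0.01. An unadjusted limma p under 0.05 was found for 2 of the 10, and 6 differences lay above 0. Smad3 and Tgfb1 are named after their values were seen. Smad3 differed by 0.92 and Tgfb1 by -0.43, and neither was called (limma, adjusted p = 0.153 and 0.739). The gene that rose was Tgfbr3, which encodes betaglycan, a coreceptor for TGF-beta. It had 9.38 and 9.65 on arrays labelled cKO and 8.04 and 7.93 on arrays labelled WT, a 2.89-fold difference (limma, adjusted p = 0.0261; 0.0521 with the replicate number as a block, and lost also without WT replicate 1, WT replicate 2 or cKO replicate 2, at 0.117, 0.141 and 0.0630).

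Klf9, a factor induced by glucocorticoids and thyroid hormone in many tissues, was near or below the array medians in all 5 probe sets. Its brightest gave 3.88 and 3.55 on the arrays labelled cKO and 4.02 and 4.07 on the arrays labelled WT. The labels did not overlap, and the difference of -0.33 ± 0.19 (SE) was not called (limma, adjusted p = 0.810). The other 4 differed by -0.26 to 0.13. Of 7 measured glucocorticoid response genes, 1 rose, 0 fell and 6 did not pass, with a median of 0.17. An unadjusted limma p under 0.05 was found for 3 of the 7, and 6 differences lay above 0. Per1 and Tsc22d3 are named after their values were seen. Per1 had 6.56 and 6.42 on arrays labelled cKO and 5.74 and 5.66 on arrays labelled WT. Tsc22d3 lay the other way, at 8.74 and 8.66 on arrays labelled cKO and 9.29 and 9.06 on arrays labelled WT. Neither was called (limma, adjusted p = 0.380 and 0.623). Sgk1, which encodes a serum- and glucocorticoid-induced kinase, had 9.25 and 9.05 on arrays labelled cKO and 7.84 and 7.73 on arrays labelled WT, a 2.59-fold difference (limma, adjusted p = 0.0417). The call of Sgk1 was lost without any single array (adjusted p from 0.0544 to 0.211), with the replicate number as a block (0.0608) and without the intensity trend (0.0502).

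Genes linked to KLF2 in T cells were read next. The list held 8 measured genes, of which 1 rose, 0 fell and 7 did not pass, with a median difference of 0.28. Over all named genes, 1.01% were called by their brightest probe set. Itgb7 encodes the beta 7 subunit of integrins that direct lymphocytes to the gut. It gave 8.84 and 8.78 on the arrays labelled cKO, against 6.06 and 5.73 on the arrays labelled WT. The 2 labels were well apart, with a difference of 2.92 ± 0.24 (SE; limma, adjusted p = 0.00360), and the call of Itgb7 held in all 11 alternative fits with limma. S1pr1 fell just outside the threshold and is named after its values were seen. It gave 5.21 and 5.30 on the arrays labelled cKO and 4.01 and 3.65 on the arrays labelled WT, a difference of 1.43 ± 0.23 (SE; limma, adjusted p = 0.0501). It passed in 5 of 11 alternative fits with limma (adjusted p from 0.0361 to 0.233), among them the fit of 1 probe set per gene. Cxcr3, a chemokine receptor gene also named after its values were seen, gave 4.85 and 3.64 on the arrays labelled cKO and 2.84 and 2.88 on the arrays labelled WT (limma, adjusted p = 0.251). Its difference of 1.38 became 0.78 without cKO replicate 1 and 1.99 without cKO replicate 2, with adjusted p of 0.0614 and 0.00179, and the adjusted p was 0.572 and 0.455 without WT replicate 1 and 2. The cell cycle genes of this list, Cdkn1a, Cdkn1b and Myc, differed by -0.26, 0.05 and 0.46, and Il4 by 0.10, with adjusted p of at least 0.829 in limma.

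**Figure D3:**
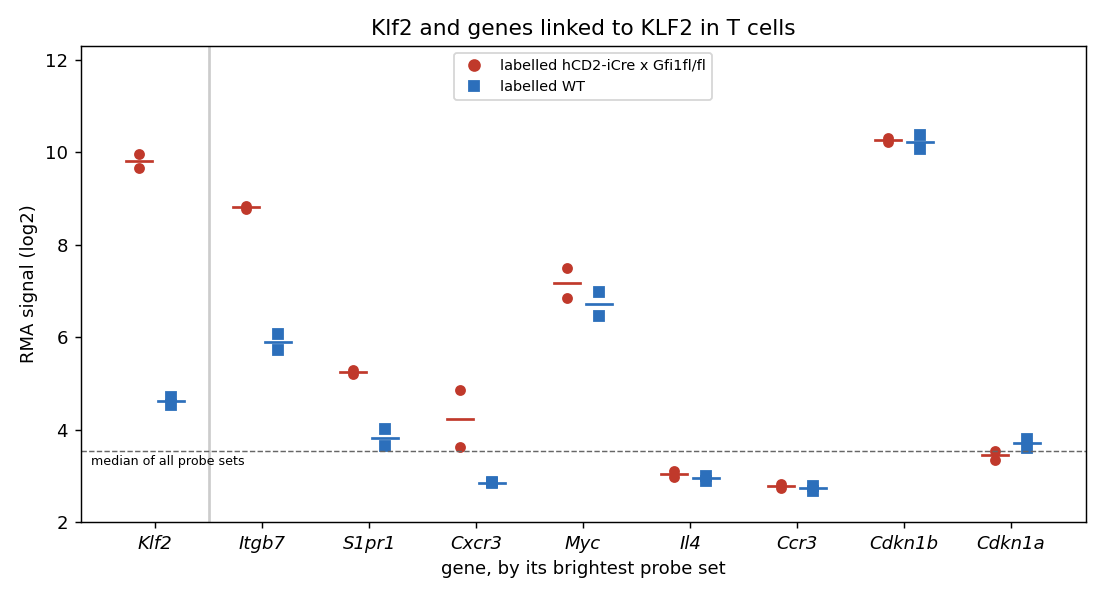
RMA signal (log2, vertical axis) of Klf2 and of the 8 measured genes linked to KLF2 in T cells (horizontal axis, by falling difference), with 1 point per array and a line at the mean of each label. Itgb7 and S1pr1 lie higher on both arrays labelled hCD2-iCre x Gfi1fl/fl than on both labelled WT, Cxcr3 is spread between the 2 arrays labelled hCD2-iCre x Gfi1fl/fl, and Cdkn1b has nearly equal means.

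No known input to Klf2 was called. Of 12 measured genes of the FOXO and ERK5-MEF2 pathways 0 passed (limma, with a median difference of 0.05 and 3 at an unadjusted p under 0.05). The largest differences were 0.66 for Map3k3, a kinase gene upstream of ERK5, and 0.54 for Pik3cd, which encodes a phosphoinositide kinase catalytic subunit (limma, adjusted p = 0.550 and 0.646). Mef2d, a MEF2 factor gene named after its values were seen, had the lowest p of the list and lay in the other direction. It gave 9.18 and 9.25 on arrays labelled cKO and 9.66 and 9.83 on arrays labelled WT, a difference of -0.52 (limma, adjusted p = 0.453). Foxo1 was at 2.99 and 2.91 on arrays labelled cKO and 3.02 and 3.15 on arrays labelled WT, below every array's median, where a fall was not detectable. Of 12 measured KLF cofactors and ubiquitin ligases 0 were called in limma (median -0.06, with 0 at an unadjusted p under 0.05). The largest differences among them were -0.39 for the corepressor gene Sin3b, whose product binds the KLF9 group, and -0.29 for the corepressor gene Ctbp2 (limma, adjusted p = 0.799 and 0.991). Without single arrays the Sin3b difference ran from -0.68 to -0.089 and that of Ctbp2 changed sign. Of 13 other measured members of the KLF and SP families 0 were called in limma, 0 had an unadjusted p under 0.05 and 0 had labels that did not overlap. Their median difference was 0.0020, and the largest were 0.19 for Sp7 and -0.14 for Sp1, a GC box factor (limma, adjusted p = 0.935 and 0.984). These 13 were set apart from the 9 genes with earlier results known, so their counts are not set against those of the 9.

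**Figure D4:**
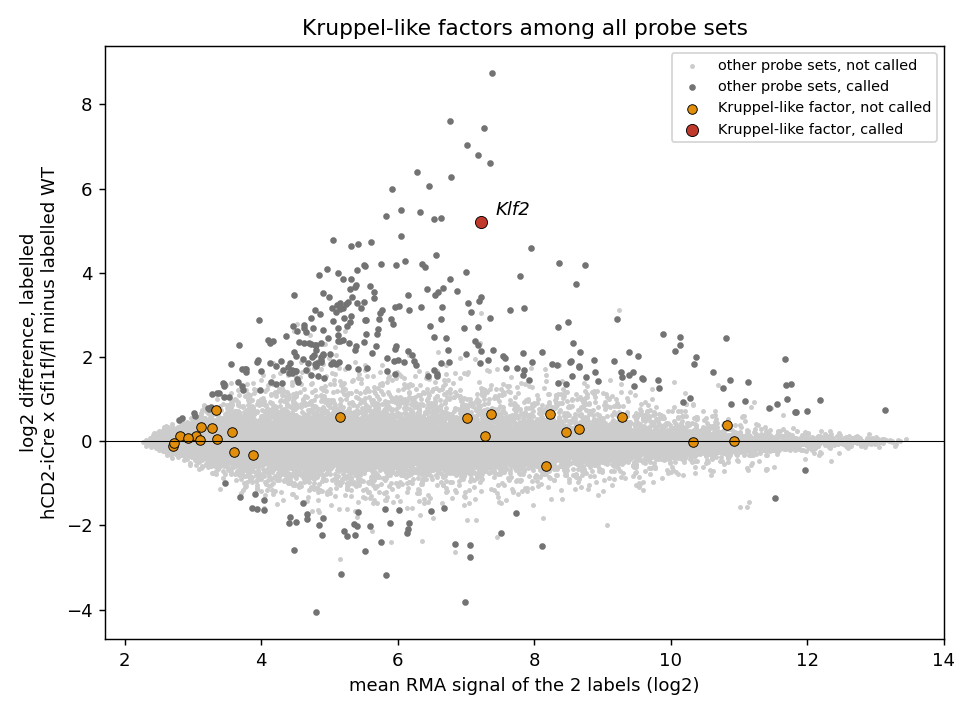
Log2 difference between the arrays labelled hCD2-iCre x Gfi1fl/fl and those labelled WT (vertical axis) against the mean signal of the 2 labels (log2, horizontal axis), with 1 point per probe set for all 45037 probe sets. Klf2 lies among the 299 probe sets called higher, and the other 25 Kruppel-like factor probe sets lie within the cloud of probe sets that were not called.

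The genes whose pattern over the 4 arrays was closest to that of Klf2 were Grhl3, Atp8b4, Rgmb, Ctss and Epha2. The measure was the Euclidean distance between profiles centred on their own means, and it was 0.44, 0.62, 0.67, 0.86 and 0.98 log2 units. Grhl3, a grainyhead transcription factor gene, gave 7.26 and 7.62 on the arrays labelled cKO and 2.65 and 2.67 on the arrays labelled WT. Epha2, an ephrin receptor gene, gave 8.26 and 8.24 on the arrays labelled cKO and 4.22 and 3.73 on the arrays labelled WT. With 4 arrays this likeness mostly measures a similar size of difference between the labels.

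Several other quantities moved with the labels or between arrays, and their part in the Klf2 result was not tested. Of 8 measured mature T cell markers, 2 rose (Itgb7, and Gimap4, a GTPase gene of lymphocytes, at 9.69 and 9.81 on arrays labelled cKO against 6.11 and 5.55 on arrays labelled WT) and 0 fell. Of the 8 differences 5 lay above 0, with a median of 0.64, and 5 had an unadjusted limma p under 0.05. Ms4a4b, named after its values were seen, had 9.68 and 9.67 on arrays labelled cKO and 8.72 and 8.48 on arrays labelled WT. Its difference of 1.07 was not called (limma, adjusted p = 0.0771). Named after their values were seen, Gimap5 had 6.40 and 6.44 on arrays labelled cKO and 6.78 and 7.19 on arrays labelled WT, and Gimap6 had 9.63 and 9.64 on arrays labelled cKO and 9.93 and 10.19 on arrays labelled WT. Both were lower on the arrays labelled cKO without overlap and were not called (limma, adjusted p = 0.704 and 0.612). This list shares Itgb7 and S1pr1 with the KLF2-linked genes. Its summed signal was 13.04 and 12.69 (log2) on arrays labelled cKO and 12.70 and 12.50 on arrays labelled WT. This sum followed mostly its brightest gene, Cd52 (12.39 and 11.78 against 12.28 and 11.96). The mean over the 8 genes was 8.18 and 8.16 on arrays labelled cKO and 7.17 and 7.03 on arrays labelled WT. No marker was called among 11 myeloid, 6 B cell, 8 gamma-delta, NK and innate lymphoid, 8 endothelial, 10 thymic epithelial and stromal and 5 erythroid genes (limma, with 0, 1, 2, 0, 3 and 0 of them in that order at an unadjusted p under 0.05). Their summed signals on arrays labelled cKO and on arrays labelled WT were 9.68 and 9.23 against 9.75 and 9.49 for the myeloid list, 7.76 and 6.95 against 8.47 and 8.13 for B cells, 6.77 and 6.54 against 6.24 and 6.22 for gamma-delta and innate cells, and 7.75 and 7.64 against 7.60 and 7.68 for endothelium. They were 8.86 and 8.09 against 7.58 and 7.04 for epithelium and stroma, where 9 of 10 members lay below the median on every array, and 8.85 and 10.49 against 7.65 and 10.22 for erythroid cells. The B cell, innate and epithelial sums did not overlap between the labels, and each followed mostly its brightest gene. These genes, named after their values were seen and given for the arrays labelled cKO against those labelled WT, were Cd79b (7.41 and 6.28 against 8.26 and 7.88), Blk (5.38 and 4.39 against 3.67 and 3.62) and Epcam (8.63 and 7.69 against 6.89 and 6.06), none of them called (limma, adjusted p = 0.416, 0.265 and 0.215). The median differences of the 3 lists were -0.05, 0.10 and 0.07, with 3 of 6, 6 of 8 and 6 of 10 members above 0. RMA signals have no zero, so no marker could be called absent.

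Klf6 and Klf10 belong to the genes that respond within minutes to handling or growth signals, so such genes were read beside them. Of 13 measured immediate-early and handling genes 0 were called (limma, median 0.16, with 4 at an unadjusted p under 0.05), and 12 differences lay above 0. The labels did not overlap for 6 of the 13, against 34.7% of all probe sets. Whether handling had a part in the Klf2 difference was not tested. Jun, an AP-1 subunit gene, gave 9.54 and 7.94 on the arrays labelled cKO and 5.49 and 5.92 on the arrays labelled WT, a difference of 3.04 (limma, adjusted p = 0.0598). It passed in 6 of 11 alternative fits with limma. Fos, its partner gene, differed by 1.48 (limma, adjusted p = 0.504), and by 0.74 to 2.21 without single arrays. Of 13 measured cell cycle genes 0 were called and 0 had an unadjusted p under 0.05 (limma), and the mean over them was 8.35 and 10.16 on replicates 1 and 2 labelled cKO and 9.09 and 9.66 on replicates 1 and 2 labelled WT. The cell cycle mean was higher on replicate 2 under both labels. Klf2 was higher on replicate 2 labelled cKO and on replicate 1 labelled WT, and the 3 Klf6 probe sets did not share one order within WT. An order of 2 arrays within a label can arise from noise, and a part of the cell cycle in the Klf2 difference was not tested. The largest cell cycle differences, for Ccna2 and Cdk1, were -0.32 and -0.23 (adjusted p = 1.00 for both, limma).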

How the data were processed

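The submitters' processing notes list RMA and Affymetrix Expression Console 1.1. The deposited values are log2 RMA signals per probe set, with nearly equal quartiles on the 4 arrays and no centring per probe set. RMA compresses differences at both ends of its range. Detection calls were not used here. The files were used without further normalization. The array annotation gave 28898 of 45037 probe sets 1 gene symbol, 551 several, and 15588 are unnamed here. Probe sets of related family members can cross-hybridise.

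All 45037 probe sets were fitted with limma 3.58.1 (lmFit, eBayes with an intensity trend) in R 4.3.3, without covariates, two-sided, and adjusted by Benjamini-Hochberg over all of them at 0.05. There were 2 residual degrees of freedom, to which the prior added 5.05. A listed gene is read by the brightest of its probe sets over the 4 arrays. The procedure was tested on simulated data, where it recovered 22% of differences of 1 and 49.75% of differences of -1. For differences of 2 and -2 it recovered 84% and 86.5%. An uncalled difference of 1 or less may therefore have been missed. An exact permutation of 2 against 2 arrays cannot give a p below 0.333, so none was used.

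Genes and lists were chosen with earlier results of these data known. Lists covered other KLF and SP genes, KLF2-linked genes, FOXO and ERK5-MEF2 inputs, the TGF-beta and KLF10 circuit, cofactors, glucocorticoid response, KLF13-linked, immediate-early and cell cycle genes, and markers of other cells. All member probe sets are named. Per list, up to 4 called genes with the largest change were named, or 2 where none was called (for marker lists, counts and sums only), and for likeness the 5 nearest genes. S1pr1, Cxcr3, Foxo1, Mef2d and the other KLF2-linked genes without a call were named after their values were seen. So were Per1, Tsc22d3, Smad3, Tgfb1, Ms4a4b, Cd52, Gimap5, Gimap6, Cd79b, Blk and Epcam. Alternatives were a replicate block, median centring, quantile normalization, a filter on the dimmest 30%, no trend, a robust prior, 1 probe set or the mean of probe sets per gene, an ordinary t statistic, and leaving out each array. Figures were drawn with matplotlib 3.10.9.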

Additional observations from a re-analysis of the deposited data

How the results depend on the processing

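The rise of Klf2 kept its direction in every alternative and its call in all but the ordinary t statistic. The count of Kruppel-like factor probe sets called was 1, and it was 2 after quantile normalization, 2 without the dimmest probe sets and 2 with a robust prior, the second being the Klf12 probe set 1439847_PM_s_at each time. It was 0 with the ordinary t statistic (4 at an unadjusted p under 0.05) and 1 without any single array. Of all probe sets, 299 were called higher and 46 lower. These counts were 182 and 23 without the intensity trend, 161 and 29 with 1 probe set per gene, 134 and 23 with the mean of a gene's probe sets (both over 17097 genes in place of 45037 probe sets) and 0 and 1 with the ordinary t statistic (3080 at an unadjusted p under 0.05). Without single arrays they ran from 147 to 329 and from 20 to 73, lowest for the higher calls without WT replicate 2 and for the lower calls without WT replicate 1.

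With the replicate number as a block, 244 probe sets were called higher and 28 lower, and Klf2 remained called. Same-numbered arrays deviated together from their label's mean (r = 0.30 over probe sets), but the labels do not say that a number marks a shared animal or day, so the arrays may share a number alone. Of the 90 genes on the pathway lists 3 were called. The count was 1 with the replicate block, 5 after quantile normalization, 5 without the dimmest probe sets, 5 with a robust prior, 5 with 1 probe set per gene and 0 with the ordinary t statistic (12 at an unadjusted p under 0.05), and ran from 1 to 3 without single arrays. The cause of these shifts was not tested.

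Differences that turned sign were all of probe sets not called. The brightest Klf13 probe set gave -0.0056 after median centring and -0.0018 after quantile normalization. Without single arrays the brightest Klf13 probe set ran from -0.030 to 0.033, the second from -0.19 to 0.14 and the third from -0.089 to 0.19. The dimmer Klf4 probe set ran from -0.021 to 0.25, Klf6 probe set 1418280_PM_at from -0.19 to 0.46 and Klf9 probe set 1452723_PM_at from -0.12 to 0.17. Klf12 probe sets 1439846_PM_at, 1422227_PM_at and 1441040_PM_at ran from -0.077 to 0.50, -0.093 to 0.23 and -0.14 to 0.067. Among list genes, Sp1 ran from -0.36 to 0.086, Ctbp2 from -0.85 to 0.27, Ccl5 from -0.038 to 0.99, Bcl2l1 from -0.10 to 0.13, Ccna2 from -1.47 to 0.83 and Cdk1 from -1.40 to 0.94. Other differences without a call also moved by over 1.5 times, among them Klf6 probe set 1427742_PM_a_at (0.15 to 0.44), Klf9 probe set 1428289_PM_at (-0.49 to -0.16), Klf12 probe set 1455521_PM_at (0.12 to 0.56) and Sp7 (0.038 to 0.34). A fit without 1 array takes the spread within the lone array's label from the other label.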
